A study of Mus musculus with 4 samples.

Results

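The nuclear genes of the mitochondrial respiratory chain were read in effector CD4 cells taken from the inflamed spinal cord and from lymph nodes. The genes were chosen by symbol, as those that start with Nduf, Uqcr or Atp5, those of the Cox4 to Cox8 subunits, and Sdha, Sdhb, Sdhc, Sdhd, Cyc1 and Cycs. This gave 94 of the 23990 gene symbols in the tables, with 45 genes of complex I, 4 of complex II, 9 of complex III, 18 of complex IV, 17 of complex V and cytochrome c. Effector CD4 cells (CD44+CD4) came by sorting from spinal cords (CNS) or from draining lymph nodes that were pooled (dLN), in wild type C57BL/6 mice (C57BL/6J in the Methods) at the onset of experimental autoimmune encephalomyelitis (EAE), a model of multiple sclerosis induced with a myelin peptide of MOG, complete Freund's adjuvant and pertussis toxin. Each tissue had 2 RNA-seq libraries, CNS_WT and dLN_WT replicates 1 and 2, and every library came from immunized mice, so no resting or unimmunized cells were measured. Per the study's Methods, PMA and ionomycin were given to the sorted cells before RNA was taken, whereas the sample labels name no stimulation. The ages of the mice and the number pooled per library were not given in the sources used here. The values are FPKM (fragments per kilobase of transcript, relative to library size), summed over the transcripts of a gene. FPKM is a level per length, so levels of different genes can be set side by side.

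The respiratory chain passes electrons from NADH (complex I) and succinate (complex II) through ubiquinone, complex III and cytochrome c to oxygen at complex IV, and the proton gradient built on the way drives ATP synthesis at complex V. Apart from complex II, each complex joins nuclear subunits with a few made inside the mitochondrion, and dedicated assembly factors put them together. Activated T cells rely on glycolysis and on respiration to different degrees in different states, and Myc, NRF1, GABPA (an ETS factor) and YY1 are known regulators of nuclear genes for mitochondrial proteins.

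Promoter sequence bears on whether genes that moved in opposite directions share regulatory letters. RefSeq start-site windows of build GRCm38.p6, 300 bases long, were matched to 77 of the 94 members. The NRF1 motif GCGCANGCG was read on both strands, and so were the ETS motif CCGGAAG, the YY1 motif AAGATGGCG and the TATA letters TATAAA. NRF1 letters occurred in 28.6% of the members' windows, against 6.47% of all 27025 windows and 15% of the 8551 windows of genes tested here. ETS letters occurred in 20.8% of the members' windows, 9.12% of all windows and 20.7% of those of tested genes. YY1 letters were in 9.09% of the members' windows, 1.49% of all windows and 3.7% of those of tested genes. The TATA letters were in 9.09% of the members' windows, 14.2% of all windows and 7.04% of those of tested genes. The windows below were selected to show NRF1 or ETS letters in members on both sides of the tissue comparison, with Cycs and Ndufaf4 lower in CNS cells and the other 4 higher. Each is the 120 bases just before the RefSeq start, 5′ to 3′ on the gene's strand, and capitals mark the motif, or its complement, including overlapping matches.
Cycs (cytochrome c, NRF1 letters, chr6:50566570-50566689, minus strand): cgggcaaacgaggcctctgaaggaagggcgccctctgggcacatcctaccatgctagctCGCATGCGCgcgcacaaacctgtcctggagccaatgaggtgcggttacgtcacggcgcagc
Ndufaf4 (complex I assembly factor, NRF1 letters, chr4:24897963-24898082, plus strand): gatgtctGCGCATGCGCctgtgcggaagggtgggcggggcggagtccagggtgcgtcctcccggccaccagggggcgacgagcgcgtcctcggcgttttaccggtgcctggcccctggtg
Sdha (catalytic subunit of complex II, NRF1 letters, chr13:74350241-74350360, minus strand): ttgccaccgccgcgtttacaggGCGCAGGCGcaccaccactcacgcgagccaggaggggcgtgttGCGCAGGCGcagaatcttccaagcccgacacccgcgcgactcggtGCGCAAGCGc
Atp5g2 (c ring of complex V, NRF1 letters, chr15:102671048-102671167, minus strand): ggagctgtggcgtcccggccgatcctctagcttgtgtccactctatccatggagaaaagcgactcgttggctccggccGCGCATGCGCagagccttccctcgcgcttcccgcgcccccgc
Uqcrh (hinge protein of complex III, ETS letters, chr4:116075071-116075190, minus strand): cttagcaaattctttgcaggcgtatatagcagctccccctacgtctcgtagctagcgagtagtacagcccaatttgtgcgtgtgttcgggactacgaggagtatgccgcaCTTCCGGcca
Cox6b1 (complex IV, ETS letters, chr7:30626115-30626234, minus strand): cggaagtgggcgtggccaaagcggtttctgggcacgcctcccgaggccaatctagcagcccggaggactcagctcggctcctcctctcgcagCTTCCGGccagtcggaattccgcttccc

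The NRF1 letters began 61 bases before the start of Cycs and 10, 55 and 98 bases before that of Sdha. Read by direction, NRF1 letters were in 5 of the 11 matched members that were lower in CNS cells, in 9 of 41 that were higher and in 8 of 21 that were tested and not called. ETS letters were in 0 of these 11, 7 of 41 and 9 of 21 windows, and YY1 letters in 0 of 11, 5 of 41 and 2 of 21. These matches describe letters in a window, and binding was not measured.

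The 4 libraries held an estimated 18.5 M to 21.9 M fragments, read from the steps between low FPKM values. Replicates correlated at 0.976 in CNS and 0.986 in dLN over log2 values of the tested genes. The T cell markers Cd3e, Cd3g, Cd4 and Cd44 were at 66.7 FPKM or more in every library, and the first 3 were higher and Cd44 lower in CNS by the limma test described below. Summed markers of microglia, macrophages and monocytes were 25.6 and 210 FPKM in CNS replicates 1 and 2 against 4.35 and 3.84 in dLN, and 7 of the 10 tested were higher in CNS with none lower. Neutrophil markers summed to 0.767 and 201 FPKM in CNS and were listed at 0 in both dLN libraries, and 0 of 3 passed the limma test, with 0 at an unadjusted p under 0.05. Markers of oligodendrocytes, astrocytes and neurons summed to 135 and 132 FPKM in CNS against 64.8 and 63.4 in dLN, with 3 of 5 tested higher and 1 lower. The lists for B cells (1.22 and 1.76 against 0.432 and 0.258 FPKM) and for CD8 T cells and NK cells (6.42 and 9.76 against 3.5 and 3.4 FPKM) summed to at most 9.76 FPKM in any library. The Y-linked gene Ddx3y was at 12.7 and 11.2 FPKM in CNS and listed at 0 in dLN, whereas Xist was at 26.6 and 22.3 FPKM in dLN, so tissue and the sex of the donor mice cannot be told apart. The T cell, myeloid, neural and sex-linked transcripts moved with the tissue split used below, and their part in the results was not tested. With CNS replicate 2 left out, CNS replicate 1 still held 25.6 FPKM of myeloid and 135 FPKM of neural markers, and sex still followed tissue. Such a fit therefore cannot separate these transcripts from tissue.

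Most members were expressed, and more of them were higher in CNS cells than lower. The 94 genes together summed to 13174 and 13912 FPKM in the CNS libraries against 10585 and 10104 FPKM in the dLN libraries, a ratio of means of 1.31. The FPKM of all gene symbols also summed to more in CNS (575728 and 604123) than in dLN (515287 and 512731). As a share of that sum, the members held 2.29% and 2.30% in CNS against 2.05% and 1.97% in dLN. Of the 94, 87 reached a mean of 1 FPKM in at least one tissue and were tested with all 10634 such genes, by limma on log2(FPKM + 1) with Benjamini-Hochberg adjustment at 0.05. In CNS cells 46 of the 87 members were higher and 16 lower, and 25 did not pass the test. Over all genes tested, 37.8% were called higher and 37.2% lower, 74.9% in total, so the members' total of 62 (71.3%) lay near the background while 52.9% of them were called higher. CNS and dLN libraries did not overlap for 78 members (54 above, 24 below) and overlapped for 9, against 89.4% without overlap over all genes. At least 2-fold higher were 13 members, where 21% of all genes were, and at least 2-fold lower were 3, where 18.2% of all genes were. The median log2 ratio of CNS over dLN was 0.38 for the members and 0.05 for all genes tested. These p-values measure only the spread between the 2 libraries of a tissue, which may be technical, and with 2 libraries against 2 the smallest two-sided p of an exact permutation test is 0.333. In bulk RNA, fewer cells that express a gene and less RNA per cell cannot be told apart.

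The surplus of higher calls moved with transcript length. Respiratory chain transcripts are short, with a median of 703 bases against 2664.5 for all genes tested. Among all genes tested, the median ratio of CNS over dLN was higher for short transcripts than for long ones. Over the 1003 tested genes under 1000 bases the median log2 ratio was 0.48, with 50.3% called higher and 22.1% lower, and the 56 members of that length had a median of 0.46, with 57.1% higher and 14.3% lower. From 1000 bases up the median of all genes was 0.00 and that of the 31 longer members was 0.14. Of these 31, 45.2% were higher and 25.8% lower, against 36.5% and 38.7% of all genes of that length. With a trend on transcript length removed within each library, 28 members were called higher and 26 lower, and the members' median was 0.04. Of the 46 higher calls 28 held and 18 were lost, all 16 lower calls held, and 10 members not called before were called lower. The share of member calls that were higher was 74.2% as deposited and 51.9% with the length trend removed. It was 59.6% with every library scaled to the same FPKM sum and 78.1% with the same upper quartile. In that order, the share over all genes tested was 50.4%, 50.7%, 43.1% and 55.6%. The members' median log2 ratio less that of all genes was 0.33, 0.01, 0.31 and 0.35. The last 2 scalings moved the median of all genes by -0.17 and 0.12 on the log2 scale. A cause of the length trend was not tested. In the comparison as deposited and in every alternative in which they could be fitted, 39 members passed the test with a single sign, 27 of them higher and 12 lower in CNS. For 37 of them this covered 18 alternatives, and for Uqcrq and Atp5f1 it covered 17, without the GC content correction.

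**Figure D1:**
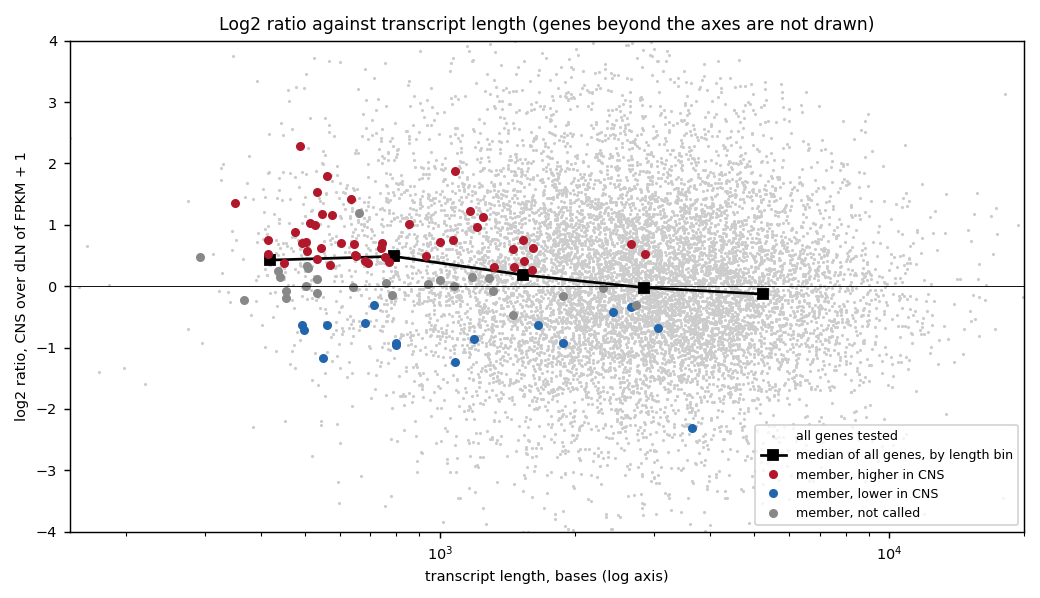
Log2 ratio of CNS over dLN (of FPKM + 1, vertical axis) against transcript length in bases (log axis) for all 10634 genes tested (grey dots, a few beyond the axes) and for the 87 members tested (coloured by their limma call). The black squares, medians of all genes in length bins, run from 0.43 under 500 bases and 0.49 between 500 and 1000 bases to -0.13 above 4000 bases, and most members lie in the short bins.

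**Figure D2:**
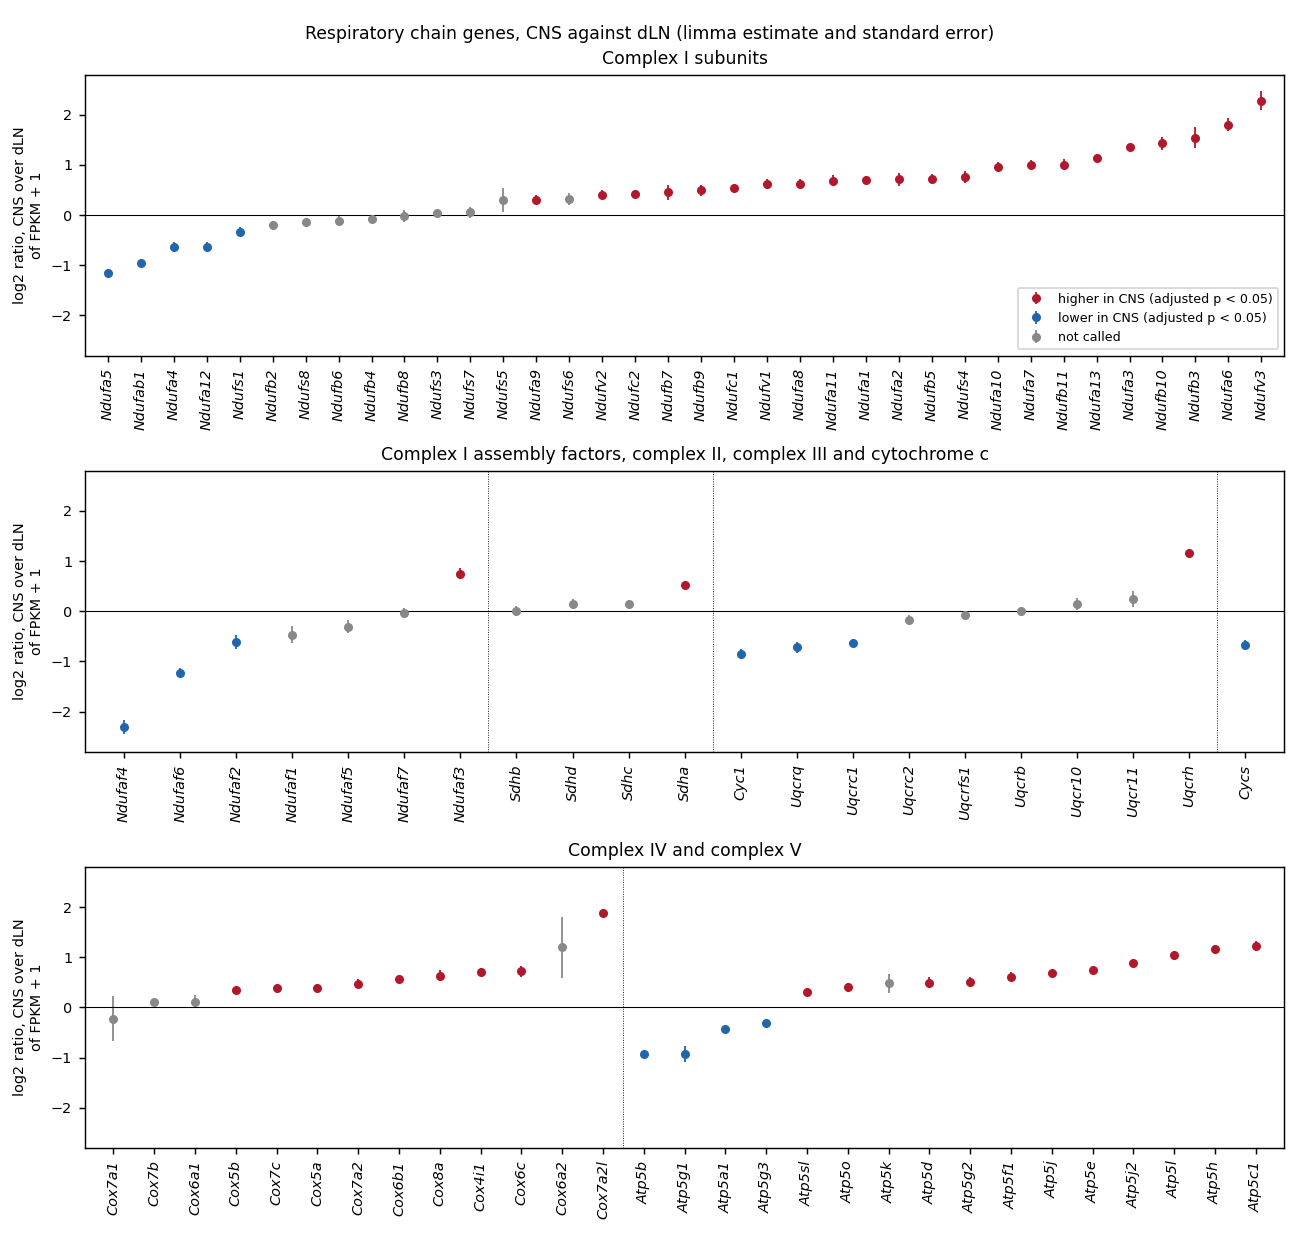
Log2 ratio of CNS over dLN (of FPKM + 1) for the tested members reported here by name, with the limma standard error, arranged by complex and separated by dotted lines. Complex I and complex V hold genes on both sides of 0, complex IV has no gene called lower, and in complex III the 3 genes called lower outnumber the single gene called higher, Uqcrh.

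Complex I oxidises NADH, and its 7 nuclear core subunits, which carry the flavin and the iron-sulfur clusters, differed by log2 ratios of -0.33 to 0.62. Of these 7, 3 were higher in CNS, 1 was lower and 3 were not called. Over all genes tested, 37.8% were higher and 37.2% lower. The median log2 ratio of the 7 was 0.05. It was -0.14 with the same FPKM sum per library and -0.24 with the length trend removed. Without dLN replicate 2, 1 was called higher and 0 lower, without dLN replicate 1 or CNS replicate 2 there were 2 and 0, and without CNS replicate 1 there were 2 and 1. Ndufv1, which binds the flavin and NADH, stood at 40.6 and 45.6 FPKM in CNS against 28.7 and 26.8 in dLN. Its libraries did not overlap, and its log2 ratio was 0.62 ± 0.10 (SE, n = 2 per tissue, limma adjusted p = 0.00362). Ndufv2 was also higher (log2 ratio 0.41, limma adjusted p = 0.00891), but not past the test without dLN replicate 2 (limma adjusted p = 0.0609). Ndufs1, the large iron-sulfur subunit, was at 20.5 and 19.1 FPKM in CNS against 25.7 and 24.7 in dLN, lower without overlap (log2 ratio -0.33 ± 0.09, limma adjusted p = 0.0197). The Ndufs1 call was lost without CNS replicate 2, dLN replicate 1 or dLN replicate 2 (limma adjusted p = 0.0639, 0.103 and 0.0743). Ndufs3, Ndufs7 and Ndufs8 had log2 ratios of 0.03, 0.05 and -0.14 and did not pass the test.

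The 29 accessory subunits surround the core without taking part in electron transfer. Of these, 20 were higher, 3 were lower and 6 were not called, with a median log2 ratio of 0.62. In total 79.3% of them were called, against 74.9% of all genes tested (37.8% higher and 37.2% lower). With the length trend removed, 14 accessory subunits were higher and 7 lower. The largest rise of any member was that of Ndufv3, an accessory subunit at the flavin site (chr17:31520115-31531325 in mm10). It was at 190 and 219 FPKM in CNS and at 49.0 and 34.6 FPKM in dLN. Both CNS libraries lay well above both dLN libraries, for a ratio of means of 4.89 and a log2 ratio of 2.28 ± 0.19 (limma adjusted p = 0.000406). Ndufa6, which contacts the acyl carrier protein of the complex, was at 229 and 228 FPKM in CNS against 73.1 and 57.6 in dLN (log2 ratio 1.80 ± 0.13, limma adjusted p = 0.000292). Ndufb3 of the membrane arm was at 105 and 112 FPKM in CNS and 45.3 and 29.7 in dLN (log2 ratio 1.54 ± 0.21, limma adjusted p = 0.00203). The dLN replicates of Ndufb3 differed by 1.53-fold, the widest dLN gap among the 85 tested members other than Cox6a2 and Cox7a1. Ndufa3 was the complex I gene with the highest mean level in CNS, 285 FPKM, against 111 in dLN (log2 ratio 1.35). The 3 accessory subunits that fell were Ndufa5, Ndufab1 and Ndufa12. Ndufa5 was at 55.2 and 50.8 FPKM in CNS and at 118 and 122 in dLN, a log2 ratio of -1.16 ± 0.08 (limma adjusted p = 0.000293). Ndufab1, the mitochondrial acyl carrier protein that is shared with fatty acid synthesis, was at 37.3 and 40.1 FPKM in CNS and 74.5 and 77.6 in dLN (log2 ratio -0.96, limma adjusted p = 0.000501). Ndufa4, counted here by its symbol although the protein is known from complex IV, was lower as well, at 128 FPKM in both CNS libraries against 214 and 185 in dLN. Its paralog Ndufa4l2 was listed at 0 in CNS and amounted to 2 and 1 fragments in dLN, so it was not tested.

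The assembly factors named Ndufaf help to join the subunits. Of 7, 1 was higher, 3 were lower and 3 were not called, where 37.8% of all genes tested were higher and 37.2% lower. Their median log2 ratio was -0.47, and -0.25 without CNS replicate 2. Ndufaf4 (chr4:24898083-24905001 in mm10) had the largest fall of any member, at 3.85 and 2.87 FPKM in CNS against 20.3 and 20.6 in dLN. The dLN values were 6.10 times those of CNS on average, with no overlap (log2 ratio -2.31 ± 0.14, limma adjusted p = 0.000174). These values rested on an estimated 278 and 213 fragments in CNS and 1293 and 1562 in dLN. Ndufaf6 was at 2.463 and 2.6999 FPKM in CNS and 7.48 and 7.36 in dLN (log2 ratio -1.23, limma adjusted p = 0.000391). Ndufaf2 was at 15.96 and 20.6 FPKM in CNS and 27.7 and 28.5 in dLN (log2 ratio -0.61, limma adjusted p = 0.0127), a call lost without dLN replicate 1 or 2 (limma adjusted p = 0.0556 and 0.0679). Ndufaf3 was the single assembly factor of this name that was higher, at 14.6 and 13.7 FPKM in CNS and 8.71 and 7.34 in dLN (log2 ratio 0.75, limma adjusted p = 0.00298). Ndufaf1, Ndufaf5 and Ndufaf7 had log2 ratios of -0.47, -0.30 and -0.04 and were not called, although Ndufaf1 passed without CNS replicate 1 (log2 ratio -0.69, limma adjusted p = 0.0248).

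Complex II is also the succinate dehydrogenase of the tricarboxylic acid cycle. It differed in 1 of its 4 subunits (25%), where 74.9% of all genes tested were called. Sdha, the flavin subunit that oxidises succinate, was at 70.0 and 68.2 FPKM in CNS against 49.5 and 46.5 in dLN. Its libraries did not overlap (log2 ratio 0.52 ± 0.08, limma adjusted p = 0.00342). Sdhb, the iron-sulfur subunit, was at 90.1 and 102 FPKM in CNS and 97.9 and 93.1 in dLN, and its libraries overlapped (log2 ratio 0.01 ± 0.10, limma adjusted p = 0.944). The membrane anchors Sdhc and Sdhd had log2 ratios of 0.14 and 0.14 and did not pass the test. The sign of the ratio was negative for Sdhb, Sdhc and Sdhd when libraries were scaled to the same FPKM sum.

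Complex III passes electrons from ubiquinone to cytochrome c, and 1 of its 9 genes was higher and 3 were lower, where 37.8% and 37.2% of all genes tested were. All 4 catalytic or core subunits had CNS libraries below dLN libraries, and 2 of them passed the test (4 with the same FPKM sum per library). Cyc1, the heme subunit cytochrome c1 (chr15:76343523-76345934 in mm10), was at 52.4 and 58.9 FPKM in CNS against 97.9 and 105 in dLN, a log2 ratio of -0.85 ± 0.10 (limma adjusted p = 0.00109). Uqcrc1 was at 81.2 and 88.9 FPKM in CNS and 130 and 135 in dLN (log2 ratio -0.63 ± 0.09, limma adjusted p = 0.002). The log2 ratios of Uqcrc2 and of the Rieske protein Uqcrfs1 were -0.16 and -0.08, neither past the test. Among the 5 small subunits, Uqcrh and Uqcrq moved in opposite directions. Uqcrh, the hinge protein that touches cytochrome c1, was at 617 and 671 FPKM in CNS and at 293 and 278 in dLN. No overlap was seen, and its log2 ratio was 1.17 ± 0.08 (limma adjusted p = 0.000246). Uqcrq was at 153 and 184 FPKM in CNS and 269 and 286 in dLN (log2 ratio -0.72 ± 0.11, limma adjusted p = 0.00328). Cycs, the soluble carrier cytochrome c that also takes part in apoptosis, was at 55.8 and 48.7 FPKM in CNS against 83.9 and 83.8 in dLN, lower without overlap (log2 ratio -0.68 ± 0.10, limma adjusted p = 0.00253).

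Complex IV, cytochrome c oxidase, had 9 of 13 tested genes higher in CNS and 0 lower by limma. At an unadjusted limma p under 0.05, 0 were lower as well, and the median log2 ratio was 0.47. In total 69.2% were called, against 74.9% of all genes tested (37.8% higher and 37.2% lower). Of all tested genes under 1000 bases, 50.3% were higher and 22.1% lower. The 10 subunits that most tissues express included 8 that were higher, by log2 ratios up to 0.72 (Cox6c). Without dLN replicate 2, 5 of these 10 were higher, and 6 without dLN replicate 1. Cox4i1, the most abundant of them in CNS, was at 483 and 511 FPKM in CNS against 311 and 298 in dLN (log2 ratio 0.70 ± 0.07, limma adjusted p = 0.000868). Cox6a1 and Cox7b had log2 ratios of 0.12 and 0.11 and were not called, although Cox6a1 passed without CNS replicate 1 (log2 ratio 0.28, limma adjusted p = 0.0278). With the transcript length trend removed, 3 complex IV genes were higher and 1 lower, and Cox5b and Cox7c, called higher as deposited, had log2 ratios of -0.07 and -0.07. Cox7a2l, a relative of the Cox7a subunits that links complexes III and IV, was the second-largest rise of all members. It was at 379 and 362 FPKM in CNS and at 103 and 96.6 FPKM in dLN. The tissues stood far apart, with a ratio of means of 3.71 and a log2 ratio of 1.88 ± 0.08 (limma adjusted p = 9.29e-05), and the lowest log2 ratio under any alternative was 1.67. Cox7a2l made up 72.4% and 73.2% of the FPKM of the Cox7a genes in CNS and 49.8% and 49.96% in dLN, while Cox7a2 took 27.5% and 26.5% in CNS and 48.9% and 49.7% in dLN. C57BL/6 mice are known for a shortened Cox7a2l protein, and FPKM does not show which protein form was made.

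The complex IV isoforms of muscle, lung or testis were near absent in both tissues. Cox7b2, Cox8b and Cox8c were listed at 0 in all 4 libraries, which at this depth allows up to 3 fragments each. Cox4i2 reached 1 fragment in a single library, and Cox6b2 reached 7 fragments at most. Cox7a1 was at 0.66 and 1.84 FPKM in CNS and 2.702 and 0.74 in dLN, with overlap. Cox6a2, the heart and skeletal muscle isoform, was at 0.28 and 3.47 FPKM in CNS and at 0 and 0.10 in dLN. Only CNS replicate 2, which had the higher sums of neutrophil and myeloid markers, had more than 3 fragments of it. Cox6a2 was not tested for a link to those markers. Its log2 ratio of 1.19 did not pass the test (limma adjusted p = 0.13), and without CNS replicate 1 it was 2.10 (limma adjusted p = 0.00474), against 0.29 without CNS replicate 2.

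Complex V, the ATP synthase, had 11 of 16 tested genes higher and 4 lower in CNS, with both directions present among its parts. In total 93.75% were called, against 74.9% of all genes tested (37.8% higher and 37.2% lower). These counts by symbol include Atp5sl (higher, log2 ratio 0.31), which is named for complex V but is not a subunit. Atp5s, also not a subunit, was not tested, and the parts described below leave both genes out. In the F1 head, the catalytic beta subunit Atp5b and the alpha subunit Atp5a1 were lower, and the gamma, delta and epsilon subunits Atp5c1, Atp5d and Atp5e were higher. Atp5d was not called with the length trend removed. Atp5b, the most abundant member in dLN, was at 396 and 393 FPKM in CNS and 738 and 761 in dLN (log2 ratio -0.92 ± 0.07, limma adjusted p = 0.000284). Atp5c1, the central shaft that turns inside the head, was at 257 and 221 FPKM in CNS against 103 and 98.4 in dLN (log2 ratio 1.23 ± 0.10, limma adjusted p = 0.000421). The ratio of Atp5b to Atp5c1 FPKM, chosen after their values were seen, was 1.54 and 1.78 in CNS and 7.13 and 7.74 in dLN. Atp5a1 was at 234 and 241 FPKM in CNS and 320 and 319 in dLN, lower without overlap (log2 ratio -0.43, limma adjusted p = 0.00383). The summed FPKM of the 5 F1 genes was 1710 and 1750 in CNS against 1697 and 1715 in dLN, a ratio of means of 1.01. As a share of all FPKM in a library, it was lower in CNS, at 0.297% and 0.290% against 0.329% and 0.335% in dLN.

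All 4 genes of the peripheral stalk, which holds the head still, were higher (2 of 4 with the length trend removed), with Atp5h at 468 and 447 FPKM in CNS against 214 and 196 in dLN (log2 ratio 1.15 ± 0.08, limma adjusted p = 0.000276). Of the 3 small membrane subunits, Atp5l (log2 ratio 1.04) and Atp5j2 (0.89) were higher and Atp5k, with a log2 ratio of 0.48, was not called. The c ring, the rotor in the membrane, is made from the same mature protein by the genes Atp5g1, Atp5g2 and Atp5g3, with 1 higher and 2 lower (0 and 2 with the length trend removed). Atp5g2 was at 362 and 412 FPKM in CNS and 280 and 263 in dLN (log2 ratio 0.51, limma adjusted p = 0.00606), but its log2 ratio was 0.12 and not called with the length trend removed (limma adjusted p = 0.171). Atp5g3 was at 318 and 306 FPKM in CNS and 398 and 379 in dLN (log2 ratio -0.31, limma adjusted p = 0.0132), a call lost without dLN replicate 1 or 2 (limma adjusted p = 0.0952 and 0.0576). Atp5g1 was at 83.7 and 114 FPKM in CNS and 187 and 184 in dLN (log2 ratio -0.92 ± 0.16, limma adjusted p = 0.00474). Its share of the c ring FPKM was 10.95% and 13.7% in CNS and 21.7% and 22.2% in dLN, and the summed c ring FPKM had a ratio of means of 0.94. As a share of all FPKM in a library, the c ring sum was 0.133% and 0.138% in CNS against 0.168% and 0.161% in dLN. The Atp5g1 difference lay largely in 1 transcript. NM_001161419 was at 3.92 and 9.74 FPKM in CNS against 72.6 and 80.6 in dLN, while NM_007506 was at 79.8 and 104 FPKM in CNS against 115 and 103 in dLN. With the most abundant transcript in place of the sum, Atp5g1 had a log2 ratio of -0.25 and was not called (limma adjusted p = 0.192). How reads were divided between paralogs, pseudogene copies and overlapping or antisense genes was not given in the sources used here, so values of near-identical genes such as these are uncertain.

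**Figure D3:**
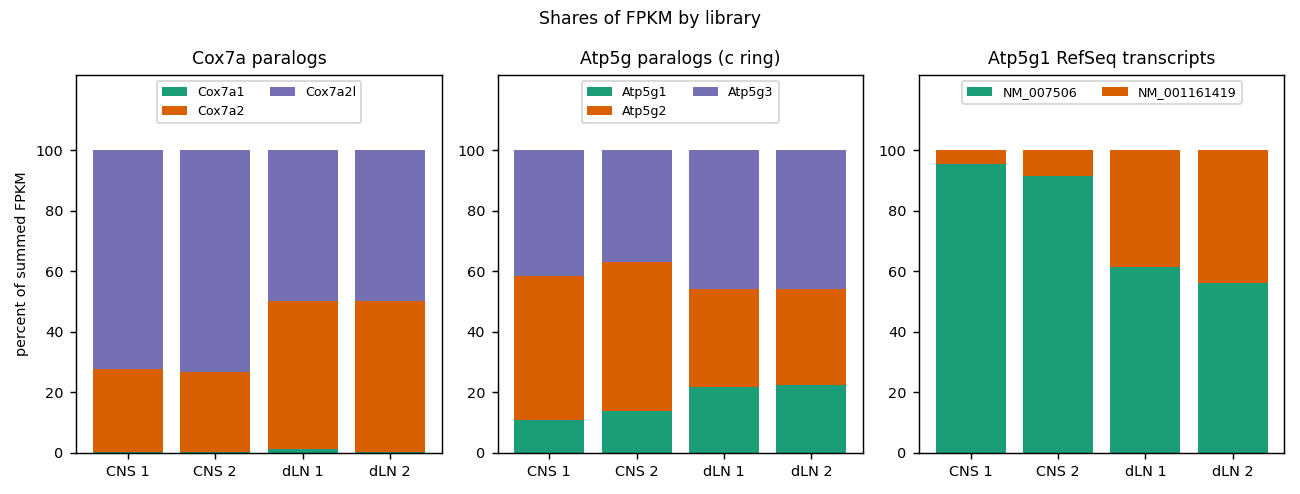
Percent of summed FPKM (vertical axis) in each of the 4 libraries for the Cox7a genes (left), the c ring genes (middle) and the RefSeq transcripts of Atp5g1 (right). Cox7a2l rises from 49.8% and 49.96% in dLN to 72.4% and 73.2% in CNS, and the Atp5g1 transcript NM_001161419 takes 38.7% and 43.9% in dLN and 4.68% and 8.56% in CNS.

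**Figure D4:**
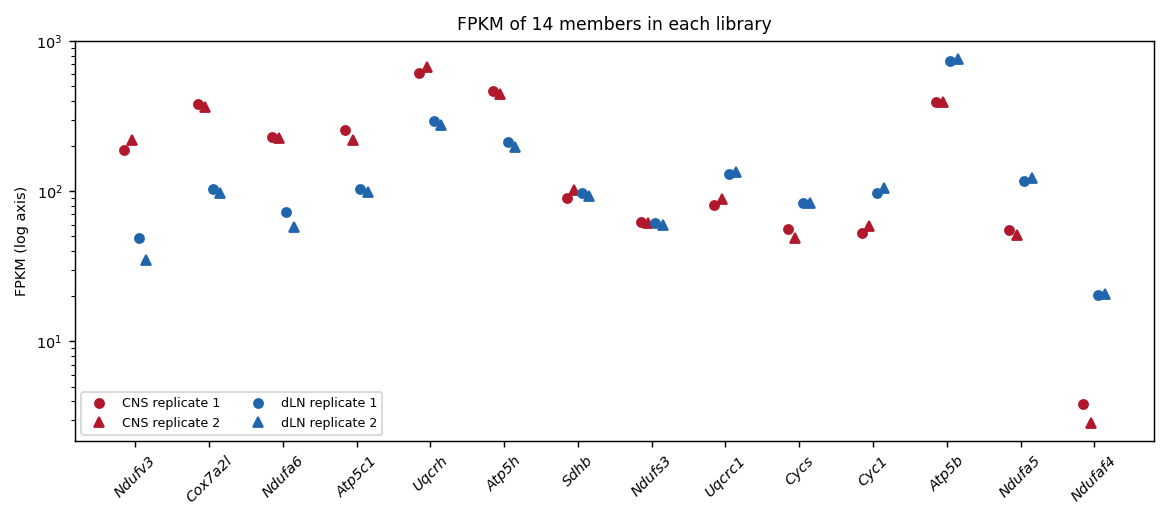
FPKM (log axis) of 14 members in CNS (red) and dLN (blue) replicates 1 (circles) and 2 (triangles). Genes at the left are higher in CNS, Sdhb and Ndufs3 do not differ past the test, and genes at the right are lower, with Ndufaf4 at 3.85 and 2.87 FPKM in CNS against 20.3 and 20.6 in dLN.

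Other mitochondrial lists had calls in both directions, to be read against 37.8% higher, 37.2% lower and 74.9% called over all genes tested. In total 66.7% of the other assembly factors, 61.1% of tricarboxylic acid cycle genes and 76.5% of cristae genes were called, which is near or under that background, and 82.6% to 88.9% of the other lists were. Among 36 tested assembly factors with other names, 12 were higher, 12 lower and 12 not called (median log2 ratio -0.06). The cytochrome c oxidase factors Cox20 (log2 ratio 1.86) and Surf1 (1.55) were higher, and Sco2 (-2.16), which delivers copper to the same enzyme, was lower. Tmem70, needed for ATP synthase assembly, was at 11.4 and 10.1 FPKM in CNS against 29.9 and 29.1 in dLN (log2 ratio -1.38, limma adjusted p = 0.000262). Of 18 tricarboxylic acid cycle genes, 5 were higher and 6 lower (median -0.19), with Idh2 (1.33) and Idh3b (0.81) higher, and fumarase Fh1 (-1.21) and Dlst (-0.79) lower. Without dLN replicate 2, 7 of the 18 passed the test.

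Genes for ubiquinone, the lipid that carries electrons to complex III, were lower in 9 of 13 and higher in 2, with a median log2 ratio of -0.66. Coq4 was at 0.47 and 0.75 FPKM in CNS and 5.66 and 7.16 in dLN (log2 ratio -2.20), and Pdss1, which makes the side chain, had a log2 ratio of -1.87. Coq10a (1.23) and Coq9 (0.54) were higher. Among 7 other enzymes that feed electrons into the chain, 4 were higher and 2 lower (median 0.89), including sulfite oxidase Suox (1.89) and the electron transfer flavoprotein subunit Etfb (1.27) among the higher and Prodh (-1.43) and Dhodh (-1.12) among the lower. Of 18 carriers and porins, 9 were higher and 7 lower (median 0.14), led by Slc25a11 (1.38) and Slc25a12 (1.17) upward and by Slc25a22 (-1.74) and the citrate carrier Slc25a1 (-1.64) downward.

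The list of mitochondrial transcription genes and its regulators was lower in 16 of 23 and higher in 3 (median -0.46), and 11 passed the test without dLN replicate 1 and 11 without dLN replicate 2. Myc was at 22.1 and 26.5 FPKM in CNS against 363 and 417 in dLN, a log2 ratio of -3.95 ± 0.13 (limma adjusted p = 8.12e-05). Pprc1, a coactivator of the PGC-1 family, was at 4.57 and 4.90 FPKM in CNS against 50.1 and 55.1 in dLN (log2 ratio -3.22). Creb1 (0.49) and Polg2 (0.34) were higher, but Creb1 was not called without CNS replicate 1 or dLN replicate 2, nor Polg2 without CNS replicate 2, dLN replicate 1 or dLN replicate 2 (limma adjusted p = 0.0615, 0.0748, 0.118, 0.136 and 0.124). Of 17 genes for cristae organisation, 6 were higher and 7 lower (median -0.23), and 8 passed the test without dLN replicate 2. Atpif1, the inhibitor protein of ATP synthase, was at 66.7 and 71.4 FPKM in CNS and 25.2 and 24.3 in dLN (log2 ratio 1.44, limma adjusted p = 0.000174), and Chchd3 was higher as well (1.19). The chaperonin Hspd1 (-2.25) and prohibitin Phb (-1.72) were lower. The cristae list also counted the matrix chaperonin genes Hspd1 and Hspe1, both lower. The transcription list counted the mitochondrial DNA replication genes Polg, Polg2, Peo1 and Ssbp1. The tricarboxylic acid cycle list counted the pyruvate dehydrogenase genes Pdha1, Pdhb, Dlat and Pdhx. The subunits made inside the mitochondrion were not analysed here.

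**Figure D5:**
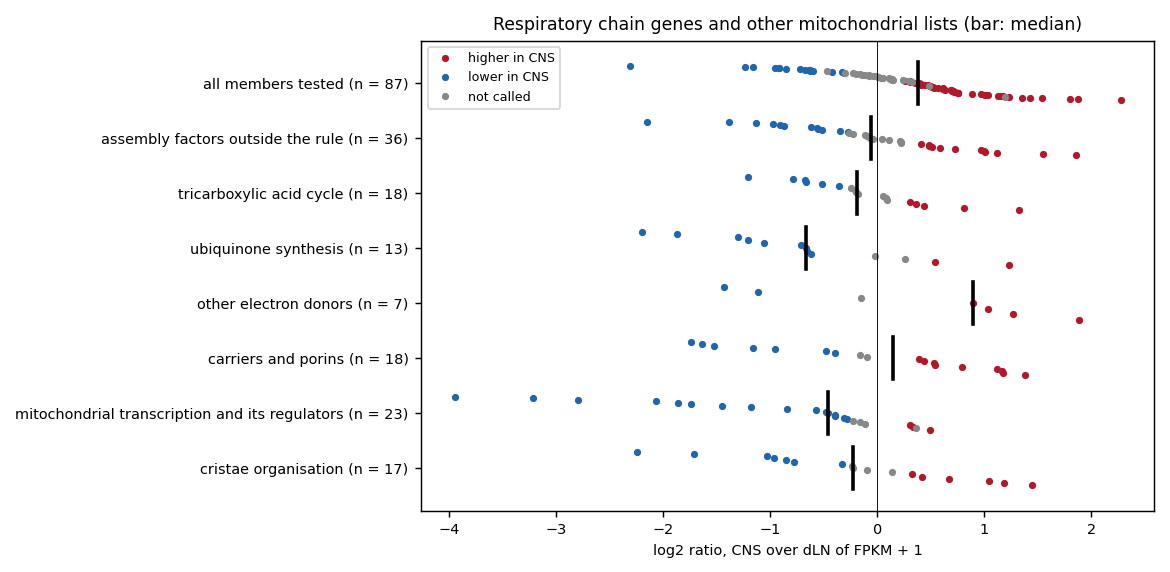
Log2 ratio of CNS over dLN (of FPKM + 1) of each tested gene in the respiratory chain and in 7 other mitochondrial lists, coloured by limma call, with the median as a bar. The medians are 0.38 for the 87 members, -0.66 for ubiquinone synthesis and -0.46 for mitochondrial transcription and its regulators.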

How the data were processed

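After trimming and mapping, the authors deposited FPKM for each RefSeq transcript of mm10, in 1 table per tissue with 33819 transcripts. The aligner and the program that computed FPKM were not given in the sources used here. The CNS header holds both library names in 1 cell, and the values were taken to follow that order. FPKM were summed per symbol (565 transcripts without a symbol, 0.142% to 0.446% of FPKM, were left out). Low FPKM fell on whole steps of 1 fragment in 91.0% to 93.2% of values (tolerance 0.05, chance 10%) when the transcript length was reduced by 150 to 190 bases, depending on the library. Genes that reached a mean of 1 FPKM in either tissue were tested with limma 3.58.1 (R 4.3.3, lmFit and eBayes with trend) on log2(FPKM + 1), in a model of tissue alone, with p-values adjusted by Benjamini-Hochberg (threshold 0.05). A ratio on this scale understates changes of low genes. Estimated fragments were used for precision only. Other steps used Python 3.11.15 (numpy 2.4.6, pandas 2.3.3) and figures matplotlib 3.10.9.

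The members, lists and tests were chosen with earlier results of these data known. Named genes were, per complex, the 3 largest called changes in each direction among those whose mean reached 10 FPKM, and the most abundant gene. Paralogs, core subunits, Ndufaf genes, complex II, Cyc1 and Cycs were added, with the 2 largest called changes in each direction of the other lists. Ndufa12, Uqcrc2, Uqcrfs1, Cox5b, Cox7c, Atp5d, Atp5e, Atp5f1, Atp5j2, Atp5k, Atp5s, Atp5sl, Hspe1 and the Atp5g1 transcripts were named after their values were seen. Some results for single genes are not reported here. Samples were grouped by the tissue in the labels. Alternatives covered pseudocounts, scalings, filters, transcript choice, a replicate block, eBayes without trend, a length trend, each library left out and, chosen after seeing the data, FPKM per full transcript length and a GC content trend (10009 of 10634 genes had a value). On simulated data, the depth estimate had a largest error of 0.758% and recovered the length taken off in 4 of 4 libraries, and limma on 10634 genes recovered 42 of 100 changes of 1 and 85 of 100 of 2 on the log2 scale, with 7 false calls.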

Additional observations from a re-analysis of the deposited data

How the results depend on the processing

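Of 1355 comparisons of 76 named genes with up to 18 alternatives, 1276 kept their direction and side of the threshold, 37 lost the call, 15 gained it and 27 changed sign. The named genes that changed sign were not called as reported, whereas Cox5b and Cox7c, called higher, had log2 ratios of -0.07 and -0.07 with the length trend removed. With the length trend removed, 28 members were higher and 26 lower with a median of 0.0436, complex IV had 4 calls, and the medians of complexes I to V were 0.0786, -0.0078, -0.299, 0.125 and 0.258 and that of carriers and porins 0.0416. Ndufs3 (-0.24), Ndufs7 (-0.29), Sdhb (-0.20), Sdhc (-0.0229), Cox6a1 (-0.32) and Cox7b (-0.14) then turned negative. With the same FPKM sum per library, complex IV had 5 calls, the members' median was 0.18 and those of complexes I to V were 0.17, -0.0544, -0.28, 0.27 and 0.30. The other medians were -0.22 (assembly factors), -0.39 (tricarboxylic acid cycle), -0.84 (ubiquinone), -0.0517 (carriers), -0.65 (transcription) and -0.41 (cristae), and Ndufs3 (-0.16), Ndufs7 (-0.14), Sdhb (-0.19), Sdhc (-0.0524), Sdhd (-0.0563), Cox6a1 (-0.0812) and Cox7b (-0.0896) turned negative. With the same upper quartile, complex II had 2 calls, complexes I to V had medians of 0.50, 0.27, 0.0547, 0.61 and 0.63, the lists just named (cristae aside) had 0.0674, -0.0601, -0.55, 0.28 and -0.33, and Ndufaf7 was at 0.0801. With the GC trend removed, complex II had 2 calls, complexes II, III and V had medians of 0.25, 0.0366 and 0.43, assembly factors, tricarboxylic acid cycle and carriers had -0.0004, -0.13 and -0.0022, and Ndufs7 (-0.18), Ndufaf7 (0.0699), Sdhb (-0.0594) and Cox6a1 (-0.0883) changed sign. Per full transcript length, complexes IV and V had medians of 0.57 and 0.59 and assembly factors 0.0087. The highest transcript gave assembly factors 0.0298. A pseudocount of 0.1 FPKM gave ubiquinone -0.80, a pseudocount of 5 FPKM gave ubiquinone -0.40 and transcription -0.32, a minimum of 5 FPKM gave ubiquinone -0.86, and no filter gave electron donors 0.39 and carriers 0.39. Median-of-ratios factors put Sdhb at -0.0128. The cause of these shifts was not tested.

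Leaving out 1 library moved medians over 0.31 to 0.42 (complex I), 0.39 to 0.61 (complex V), -0.0592 to 0.0751 (assembly factors), -0.20 to -0.10 (tricarboxylic acid cycle) and 0.0571 to 0.21 (carriers), with a single library then assumed to vary like the other tissue. Calls ranged from 7 to 11 (tricarboxylic acid cycle, 7 without dLN replicate 2), 11 to 15 (transcription, 11 without either dLN replicate) and 8 to 10 (cristae, 8 without dLN replicate 2). Log2 ratios ranged from -0.0359 to 0.14 for Ndufs7, -0.11 to 0.0373 for Ndufaf7, -0.0823 to 0.098 for Sdhb, -0.0454 to 0.28 for Cox6a1 and -0.77 to 0.32 for Cox7a1. Replicate numbers were not described as pairs of samples. The replicate differences of the tissues correlated at 0.0933, which cannot show whether samples were paired. With a replicate block 61 members were called, 44 higher and 17 lower, and 7828 genes in all. With 2 libraries per tissue, depth of 18.5 M to 21.9 M fragments limits members under 10 FPKM most, and the lowest called member value rested on 47.7 fragments.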
